A study of Mus musculus with 30 samples.

Results

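Metallothioneins and the genes that carry zinc into and out of cells were followed in mouse liver across 3 genotypes (wild-type, C151S, and Nrf2-knockout), with tissue taken 24 h after CDDO-Me or its vehicle was given by mouth. The 7 genes were chosen by symbol from the 55335 genes of the count table, and all 7 passed the filter on low counts in every comparison. They are the metallothioneins Mt1 and Mt2, the zinc sensor Mtf1, the exporters Slc30a1 and Slc30a10, and the importers Slc39a4 and Slc39a14.

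Poly(A) RNA-seq was done on 30 livers, 5 in each of 6 groups, from male mice 7 to 10 weeks old on an albino C57BL/6J background. Wild-type mice carried normal Keap1 and Nrf2 (Nfe2l2). C151S mice carried a CRISPR-Cas9 knock-in that replaces the CDDO-Me-sensing cysteine of KEAP1 with serine, and Nrf2-knockout mice lacked NRF2 in all cells, so neither change was restricted to hepatocytes. Each genotype received either vehicle (DMSO, Cremophor-EL, and PBS) or CDDO-Me at 30 µmol/kg, an oleanane triterpenoid that reacts with KEAP1 and so releases the transcription factor NRF2. CDDO-Me was therefore compared with vehicle within each genotype, and the mutants with wild-type mice under each treatment. The paper states that wild-type mice came from the Jackson Laboratory, while homozygous mutants were mated and used in the experiments. Differences between mutant and wild-type mice thus cannot be told apart from differences in the source of the mice.

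Metallothioneins are small cysteine-rich proteins that bind zinc, copper, and cadmium and scavenge oxidants, and the liver makes large amounts of them under stress. The metal-sensing factor MTF1 binds metal response elements in their promoters when free zinc rises. Glucocorticoids, interleukin-6, and oxidants are also known inducers, and interleukin-6 raises the importer ZIP14 (Slc39a14) in the acute phase response, which moves zinc from blood into the liver. ZIP4 (Slc39a4) is best known for zinc uptake in the intestine, ZnT1 (Slc30a1) removes zinc from the cytosol across the plasma membrane, and SLC30A10, despite its name, is known for exporting manganese.

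Mt2 and Mt1 lie on the same strand of chromosome 8, in that order, with 5513 bp between them (Mt2 94172664-94173568, Mt1 94179082-94180327, both + strand, GRCm38). Because they moved together in the counts, their promoters are shown, as the 250 bases before the RefSeq start of each gene on GRCm38.p6 (chr8:94178839-94179088 for Mt1 and chr8:94172368-94172617 for Mt2, + strand). Capitals mark matches to the core of the metal response element, TGCACNC or TGCGCNC, on either strand.
Mt1: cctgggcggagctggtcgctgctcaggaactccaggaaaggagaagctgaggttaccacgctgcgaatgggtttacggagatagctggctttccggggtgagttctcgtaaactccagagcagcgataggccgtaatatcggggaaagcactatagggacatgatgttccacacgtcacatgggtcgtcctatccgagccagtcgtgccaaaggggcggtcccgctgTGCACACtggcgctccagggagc
Mt2: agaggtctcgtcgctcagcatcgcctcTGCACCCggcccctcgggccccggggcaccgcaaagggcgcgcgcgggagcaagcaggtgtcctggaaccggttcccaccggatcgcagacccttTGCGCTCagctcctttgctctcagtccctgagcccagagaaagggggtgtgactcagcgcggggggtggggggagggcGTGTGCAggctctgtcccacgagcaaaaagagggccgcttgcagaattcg
Over the full window of 300 bases, which adds the 50 bases after the start, Mt1 held 3 matches and Mt2 held 4. Of these, 1 in Mt1 and 3 in Mt2 lay wholly before the start. Among 32851 RefSeq windows of that length, 25.7% held at least 1 match, 1.97% held at least 3, and 0.517% held at least 4. Windows were also given for 3 other genes, with 3 matches for Slc30a10, 2 for Slc30a1, and 0 for Mtf1. Slc39a4 and Slc39a14 were not among the windows. The core of the antioxidant response element, through which NRF2 acts, is TGACNNNGC. It was matched once in Mt2, as TGACTCAGC, which starts 79 bases before the RefSeq start, and once in Slc30a1. It was not matched in the windows of Mt1, Mtf1, or Slc30a10, and bases outside the windows were not searched. That motif was found in 12.4% of all windows. The STAT motif TTCNNNGAA was in 8.30% of all windows and the E-box CACGTG in 7.15%, and neither was matched in any of the 5 windows. The RefSeq start of Mt1 lies 7 bases after the GENCODE start and that of Mt2 46 bases before it, so the windows depend on the start chosen. A match shows only that these letters are present.

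Libraries held 23667068 to 42073169 counts on genes (median 33229925), and the 7 genes had between 198 (Mt2) and 69501 (Mt1) counts in a single library. Levels are CPM, counts scaled to a common library size, after TMM scaling over the 30 libraries. The hepatocyte transcript Alb was abundant in every library, between 48420 and 122700 CPM. Nfe2l2 was at 22.4 to 39.8 CPM in the 10 Nrf2-knockout libraries and at 42.0 CPM or above in the other 20, and Nqo1, an NRF2 target, rose after CDDO-Me in wild-type mice from a median of 8.33 to 55.1 CPM (log2 fold change 3.16, adjusted p = 3.9e-05, edgeR). C151S CDDO-Me replicate 1 and Nrf2KO CDDO-Me replicate 2 stood apart from the rest of their groups in acute phase transcripts, with Saa1 at 19470 and 6809 CPM against medians of 445 and 248 CPM. Low Arntl was found in 11 libraries, 5 C151S and 6 Nrf2-knockout and no wild-type (at most 1.81 CPM, against 5.69 CPM or above in the other 19). Arntl encodes the clock activator BMAL1, and its transcript is known to cycle daily. The methods of the study treat isolation date as a possible batch, but the labels do not tie libraries to dates, so isolation date could not be entered in the fits and p-values measure the spread between these libraries.

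Mt1 and Mt2 rose after CDDO-Me in wild-type mice. Mt1 was at 44.7, 51.0, 15.4, 44.6, and 38.4 CPM in the 5 vehicle livers and at 515, 207, 154, 206, and 503 CPM in the 5 CDDO-Me livers. Mt2 was at 23.9, 24.5, 6.22, 20.9, and 14.0 CPM with vehicle and at 368, 171, 93.4, 125, and 319 CPM after CDDO-Me. For both genes every CDDO-Me liver was above every vehicle liver, with replicates 1 and 5 the highest after CDDO-Me and replicate 3 the lowest with vehicle. The log2 fold change was 3.03 ± 0.40 (SE, n = 5 per group) for Mt1, a fold of 8.14, with an adjusted p of 9.3e-04 (edgeR quasi-likelihood test). For Mt2 it was 3.59 ± 0.45, a fold of 12.02, with an adjusted p of 6.2e-04 (edgeR). Of the 7 genes, 2 were called, which needed an adjusted p under 0.05 and a log2 fold change of 0.5 or more in either direction, against 2.75% of the 13697 genes tested, and 2 of 7 had groups that did not overlap, against 5.46% of all genes.

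**Figure D1:**
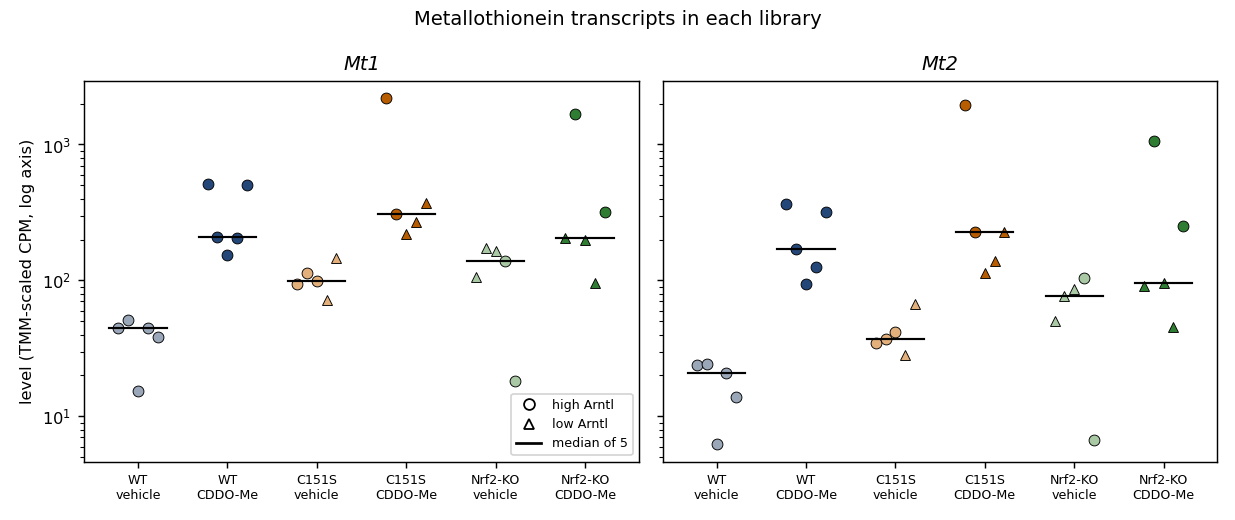
Levels of Mt1 and Mt2 in each of the 30 livers (TMM-scaled CPM, log axis), by genotype and treatment; circles are libraries with high Arntl, triangles those with low Arntl, and black lines the median of 5. In wild-type and C151S mice every CDDO-Me liver lies above every vehicle liver, while the Nrf2-knockout groups overlap, and 1 C151S and 1 Nrf2-knockout CDDO-Me liver stand apart, at 2184 and 1682 CPM for Mt1.

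The same difference was seen in direction but not called in C151S mice. Mt1 was at 94.3, 114, 98.9, 71.3, and 146 CPM with vehicle and at 2184, 308, 221, 271, and 374 CPM after CDDO-Me. Mt2 was at 34.4, 37.2, 41.9, 28.5, and 67.3 CPM with vehicle and at 1940, 227, 113, 139, and 227 CPM after CDDO-Me. All 5 CDDO-Me livers were above all 5 vehicle livers for both genes, with replicate 1 far above the other 4. The log2 fold change was 2.67 ± 0.63 for Mt1 (adjusted p = 0.282, edgeR) and 3.65 ± 0.80 for Mt2 (adjusted p = 0.223, edgeR). None of the 7 genes was called, against 0.0920% of the 14128 genes tested, and 2 of 7 had groups that did not overlap, against 2.12% of all genes. Of the 7, 4 had an unadjusted p under 0.05, as did 1942 of the 14128 genes (edgeR). DESeq2 called 0, but it gave no adjusted p for Mt1 or Mt2 here and so could not call them. Both metallothioneins were called once C151S CDDO-Me replicate 1 was left out, although the fold changes were then smaller, at 1.47 on the log2 scale for Mt1 (adjusted p = 0.0429, edgeR) and 2.07 for Mt2 (adjusted p = 0.0423, edgeR).

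In Nrf2-knockout mice the metallothionein levels of the groups overlapped. Mt1 was at 105, 173, 165, 139, and 18.2 CPM with vehicle and at 206, 1682, 198, 95.8, and 317 CPM after CDDO-Me. Mt2 was at 50.3, 77.5, 86.2, 105, and 6.67 CPM with vehicle and at 90.5, 1066, 96.1, 45.5, and 253 CPM after CDDO-Me. Vehicle replicate 5 was the lowest and CDDO-Me replicate 2 the highest for both genes, and CDDO-Me replicate 4 was below 4 of the 5 vehicle livers. The log2 fold change was 2.03 ± 0.77 for Mt1 and 2.22 ± 0.87 for Mt2 (adjusted p = 0.588 for each, edgeR). None of the 7 genes was called, against 0% of the 14474 genes tested, of which 1136 had an unadjusted p under 0.05, and none had groups that did not overlap, against 1.71% of all genes. Among the 7, 2 had an unadjusted p under 0.05, and DESeq2 called 0. Without CDDO-Me replicate 2 the log2 fold changes were 0.76 for Mt1 (adjusted p = 0.769, edgeR) and 0.89 for Mt2 (adjusted p = 0.775, edgeR). In the 6 low-Arntl livers alone they were 0.17 and 0.11. In the 4 high-Arntl livers, which hold vehicle replicate 5 and CDDO-Me replicate 2, they were 3.61 and 3.51. That split was not seen in C151S mice, where low-Arntl livers were higher after CDDO-Me. Mt1 was at 71.3 to 146 CPM in 2 such livers with vehicle and at 221 to 374 CPM in 3 after CDDO-Me. Mt2 was at 28.5 to 67.3 and at 113 to 227 CPM.

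The responses of the genotypes were compared directly in 1 fit of the 30 libraries. The response of Mt1 in wild-type mice minus that in C151S mice was 0.35 ± 0.93 on the log2 scale (adjusted p = 0.950, edgeR), and that of Mt2 was -0.07 ± 1.08 (adjusted p = 0.993, edgeR). Against Nrf2-knockout mice the differences were 0.98 ± 0.93 for Mt1 (adjusted p = 0.952, edgeR) and 1.34 ± 1.08 for Mt2 (adjusted p = 0.935, edgeR). The SE near 1 leaves room for differences of severalfold in either direction. Without C151S CDDO-Me replicate 1 and Nrf2KO CDDO-Me replicate 2 the values for wild-type minus Nrf2-knockout were 2.26 and 2.69 (adjusted p = 0.154 and 0.173, edgeR), and for wild-type minus C151S 1.55 and 1.52 (adjusted p = 0.492 and 0.610, edgeR). None of the 7 genes was called in any of the 3 differences between responses by edgeR or DESeq2, against 0.480% of 15010 genes for wild-type minus C151S, 0.266% for wild-type minus Nrf2-knockout, and 0.0133% for C151S minus Nrf2-knockout. The numbers of the 7 genes with an unadjusted p under 0.05 were 2, 0, and 0, against 1247, 942, and 739 of the 15010 genes (edgeR). On the NRF2 target list 7 of 9 genes tested were called for wild-type minus C151S and 6 of 9 for wild-type minus Nrf2-knockout.

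The ratio of Mt1 to Mt2 within a liver was lower after CDDO-Me in wild-type and C151S mice, given here as a description. In wild-type mice it was between 1.87 and 2.74 with vehicle and between 1.22 and 1.65 after CDDO-Me. In C151S mice it was between 2.17 and 3.07 with vehicle and between 1.13 and 1.96 after CDDO-Me. In neither genotype did the groups overlap, so Mt2 gained more than Mt1, whereas in Nrf2-knockout mice the ranges of 1.33 to 2.73 and 1.25 to 2.27 overlapped. The other metallothioneins, Mt3 and Mt4, known from brain and from squamous epithelium, had at most 3 counts in every library.

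With vehicle, both metallothioneins were called higher in the mutants than in wild-type mice when each pair of groups was fitted alone, and none of these 4 calls held in 1 fit of the 30 libraries. All 5 C151S livers were above all 5 wild-type livers, with a log2 fold change of 1.45 ± 0.28 for Mt1 (adjusted p = 0.0113, edgeR) and 1.24 ± 0.34 for Mt2 (adjusted p = 0.0440, edgeR). Nrf2-knockout livers were higher by 1.66 ± 0.48 for Mt1 (adjusted p = 0.0383, edgeR) and 1.89 ± 0.57 for Mt2 (adjusted p = 0.0416, edgeR), with 4 of 5 above every wild-type liver and replicate 5 below 4 of the 5. The 2 comparisons share their wild-type libraries. In each, 2 of the 7 genes were called, against 4.84% of the 13946 genes tested for C151S and 10.4% of the 14030 for Nrf2-knockout. Mt1 in C151S mice was called with each library left out in turn, with an adjusted p between 0.0056 and 0.0341 (edgeR), but its adjusted p in the fit of 30 libraries was 0.220 (edgeR), where that of Mt2 was 0.369. In Nrf2-knockout mice that fit gave an adjusted p of 0.0989 for Mt1 and 0.105 for Mt2 (edgeR). Mt2 in C151S mice kept its call in 3 of the 10 fits that left out 1 library, and both genes in Nrf2-knockout mice in 2 of 10, so these calls sit at the threshold. Among high-Arntl livers alone the C151S difference was 1.43 for Mt1 and 1.12 for Mt2 (adjusted p = 0.0068 and 0.0342, edgeR), and the Nrf2-knockout difference was 1.08 and 1.70 (adjusted p = 0.296 and 0.187, edgeR). C151S and Nrf2-knockout mice did not differ by the test in any of the 7 genes with vehicle, with 0 of 7 at an unadjusted p under 0.05 and 0 called by DESeq2, against 0.349% of 14323 genes called; Mt1 differed by -0.20 ± 0.44 and Mt2 by -0.64 ± 0.51.

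After CDDO-Me the metallothioneins were spread too widely for the genotypes to be separated. C151S minus wild-type was 1.11 ± 0.65 for Mt1 and 1.32 ± 0.77 for Mt2 (adjusted p = 0.313 and 0.308, edgeR), and these became -0.10 and -0.27 without C151S CDDO-Me replicate 1. Nrf2-knockout minus wild-type was 0.66 ± 0.68 for Mt1 and 0.54 ± 0.74 for Mt2 (adjusted p = 0.554 and 0.674, edgeR), and these became -0.60 and -0.79 without Nrf2KO CDDO-Me replicate 2. The direction thus rested on 1 liver in each mutant group.

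**Figure D2:**
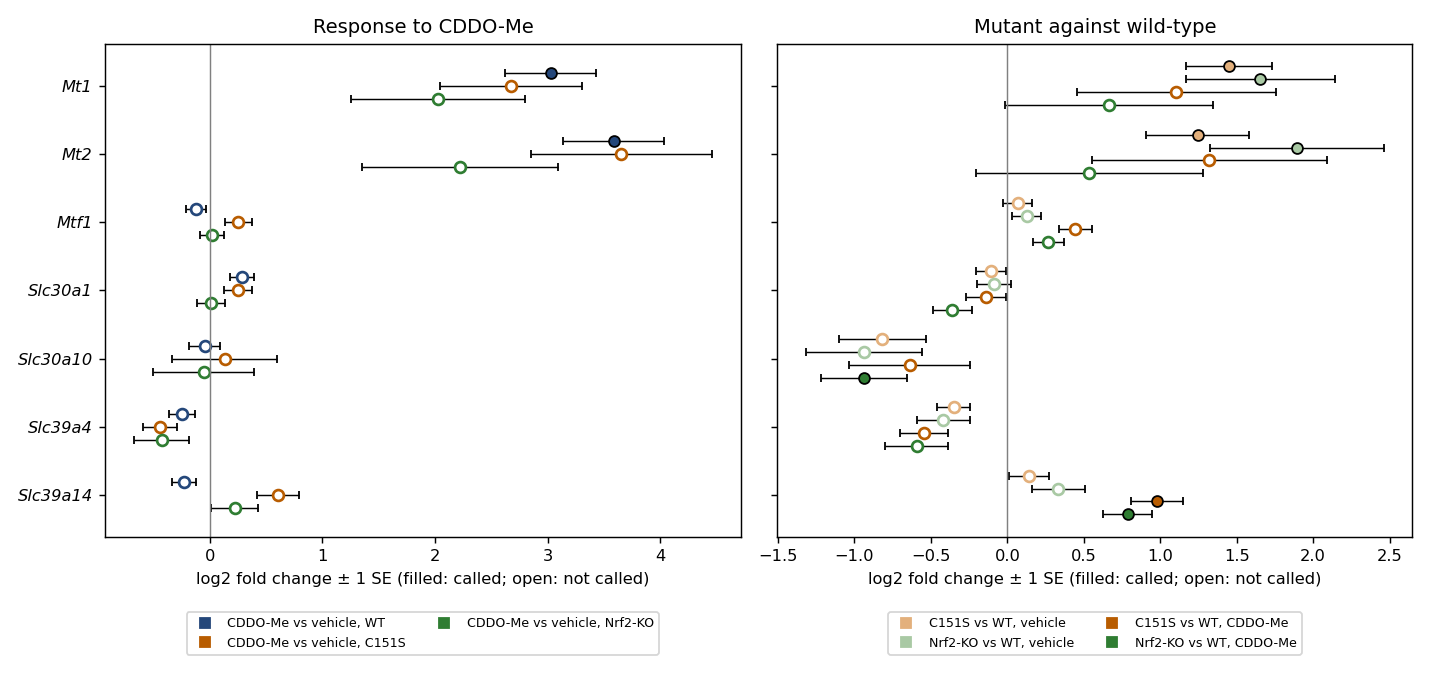
Log2 fold change ± 1 SE (edgeR) of the 7 genes for CDDO-Me against vehicle in each genotype (left) and for each mutant against wild-type mice under each treatment (right), with 5 livers per group; filled circles passed the threshold and open circles did not. Mt1 and Mt2 lie to the right of 0 throughout but passed only in wild-type mice on the left and with vehicle on the right, and Slc39a14 passed in both mutants after CDDO-Me.

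Mtf1, the zinc sensor itself, varied little, between 14.7 and 24.9 CPM over the 30 livers. In wild-type mice it was at 15.6, 14.7, 18.3, 18.7, and 19.6 CPM with vehicle and at 16.2, 16.2, 15.2, 15.3, and 17.5 CPM after CDDO-Me (log2 fold change -0.12 ± 0.09, adjusted p = 0.554, edgeR). In C151S mice after CDDO-Me it was at 18.7, 17.1, 24.0, 23.3, and 24.9 CPM, with the 3 highest values in the 3 low-Arntl livers. Against wild-type mice after CDDO-Me that was a log2 fold change of 0.44 ± 0.11 (adjusted p = 0.0336, edgeR), which was under the threshold on fold, and it was 0.17 among high-Arntl livers (adjusted p = 0.488, edgeR). Over the 20 mutant livers Mtf1 was between 18.4 and 24.9 CPM in the low-Arntl set and between 15.8 and 19.3 CPM in the high-Arntl set.

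Neither exporter passed the test for a response to CDDO-Me in any genotype. Slc30a1 was at 38.3, 34.4, 39.1, 34.2, and 37.3 CPM in wild-type vehicle livers and at 51.2, 46.9, 47.1, 47.2, and 32.6 CPM after CDDO-Me. Thus 4 of the 5 treated livers were above every vehicle liver and replicate 5 was below all of them, for a log2 fold change of 0.29 ± 0.11 (adjusted p = 0.168, edgeR). In C151S mice the log2 fold change was 0.25 ± 0.12 (adjusted p = 0.385, edgeR), and in Nrf2-knockout mice it was 0.01 ± 0.12 (adjusted p = 0.988, edgeR).

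Slc30a10 separated the livers by their Arntl level. In wild-type mice it was at 37.7, 57.7, 43.1, 37.3, and 42.1 CPM with vehicle and at 38.5, 52.2, 40.6, 47.6, and 33.5 CPM after CDDO-Me, with groups that overlapped. In C151S mice it was at 32.3, 25.0, 37.6, 13.3, and 13.7 CPM with vehicle and at 59.3, 33.5, 12.02, 13.3, and 16.3 CPM after CDDO-Me. In Nrf2-knockout mice it was at 16.8, 12.3, 8.20, 30.3, and 45.0 CPM with vehicle and at 16.7, 33.8, 14.9, 11.4, and 32.5 CPM after CDDO-Me. Each mutant group thus held a high and a low cluster, and these were the high- and low-Arntl livers without exception, at 25.0 to 59.3 CPM in 9 livers and at 8.20 to 16.8 CPM in 11. The log2 fold changes for CDDO-Me were -0.04 ± 0.14, 0.13 ± 0.47, and -0.05 ± 0.45 for the wild-type, C151S, and Nrf2-knockout genotypes. Slc30a10 was called lower in Nrf2-knockout than in wild-type mice after CDDO-Me (log2 fold change -0.94 ± 0.28, adjusted p = 0.0470, edgeR), but that value was -0.34 among high-Arntl livers (adjusted p = 0.260, edgeR) and was called in only 3 of the 10 fits that left out 1 library. With vehicle it was -0.82 ± 0.28 in C151S mice (adjusted p = 0.0925, edgeR) and -0.94 ± 0.38 in Nrf2-knockout mice (adjusted p = 0.107, edgeR). The C151S difference was called by DESeq2 (adjusted p = 0.0273), so its call depended on the test. Among high-Arntl livers that difference was -0.44 (adjusted p = 0.0791, edgeR). No wild-type liver was in the low-Arntl set, so within that set genotype could not be compared.

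Slc39a4 was at 67.5, 57.0, 55.3, 51.5, and 65.8 CPM in wild-type vehicle livers and at 45.3, 43.3, 61.5, 59.0, and 42.5 CPM after CDDO-Me (log2 fold change -0.25 ± 0.12, adjusted p = 0.322, edgeR). In C151S mice it was at 46.0, 36.4, 51.3, 52.8, and 44.1 CPM with vehicle and at 28.5, 30.2, 47.5, 34.6, and 29.7 CPM after CDDO-Me (-0.44 ± 0.15, adjusted p = 0.350, edgeR). In Nrf2-knockout mice it was at 47.5, 43.6, 31.4, 33.1, and 64.4 CPM with vehicle and at 48.6, 19.8, 28.1, 36.6, and 31.6 CPM after CDDO-Me (-0.43 ± 0.24, adjusted p = 0.700, edgeR). The estimate was below 0 in all 3 genotypes and was not called in any, and the groups overlapped in each. Against wild-type mice after CDDO-Me it differed by -0.55 ± 0.16 in C151S mice (adjusted p = 0.0612, edgeR, and 0.0196 by DESeq2) and by -0.59 ± 0.21 in Nrf2-knockout mice (adjusted p = 0.0814, edgeR, and 0.0374 by DESeq2), so that its call depended on the test. The lowest single value, 19.8 CPM, was in Nrf2KO CDDO-Me replicate 2, the same liver that had the highest Mt1 of its group.

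Slc39a14 was called higher in both mutants than in wild-type mice after CDDO-Me. In wild-type mice it was at 157, 173, 202, 211, and 247 CPM with vehicle and at 150.8, 176, 162, 177, and 185 CPM after CDDO-Me, with a log2 fold change of -0.23 ± 0.11 (adjusted p = 0.321, edgeR). In C151S mice it was at 190, 215, 186, 277, and 214 CPM with vehicle and at 505, 266, 316, 268, and 296 CPM after CDDO-Me. In Nrf2-knockout mice it was at 234, 268, 311, 259, and 158 CPM with vehicle and at 232, 438, 253, 246, and 280 CPM after CDDO-Me. After CDDO-Me all 10 mutant livers were above all 5 wild-type livers, and C151S CDDO-Me replicate 1 and Nrf2KO CDDO-Me replicate 2 were again the highest. The difference from wild-type was 0.98 ± 0.17 in C151S mice (adjusted p = 0.0075, edgeR) and 0.79 ± 0.16 in Nrf2-knockout mice (adjusted p = 0.0086, edgeR), with the wild-type libraries shared. It was called with each library left out in turn in both comparisons, and without the outlying liver it was 0.77 (adjusted p = 6.4e-04, edgeR) and 0.60 (adjusted p = 0.0022, edgeR). Among high-Arntl livers alone it was 1.19 and 1.09 (adjusted p = 0.0200 and 0.0040, edgeR). Of the 7 genes, 1 was called for C151S, against 5% of the 13844 genes tested, and 2 for Nrf2-knockout, against 9.44% of the 13935. With vehicle the differences were 0.14 ± 0.13 and 0.33 ± 0.17 (adjusted p = 0.519 and 0.195, edgeR). The response of Slc39a14 in wild-type minus that in C151S mice was -0.83 ± 0.26, with an unadjusted p of 0.0040 and an adjusted p of 0.297 (edgeR), so the difference between the responses was not called. C151S and Nrf2-knockout mice had 0 of 7 genes called between them after CDDO-Me and 0 with an unadjusted p under 0.05, by DESeq2 also 0, against 0.162% of 14186 genes, and Slc39a14 differed by 0.19 ± 0.22.

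**Figure D3:**
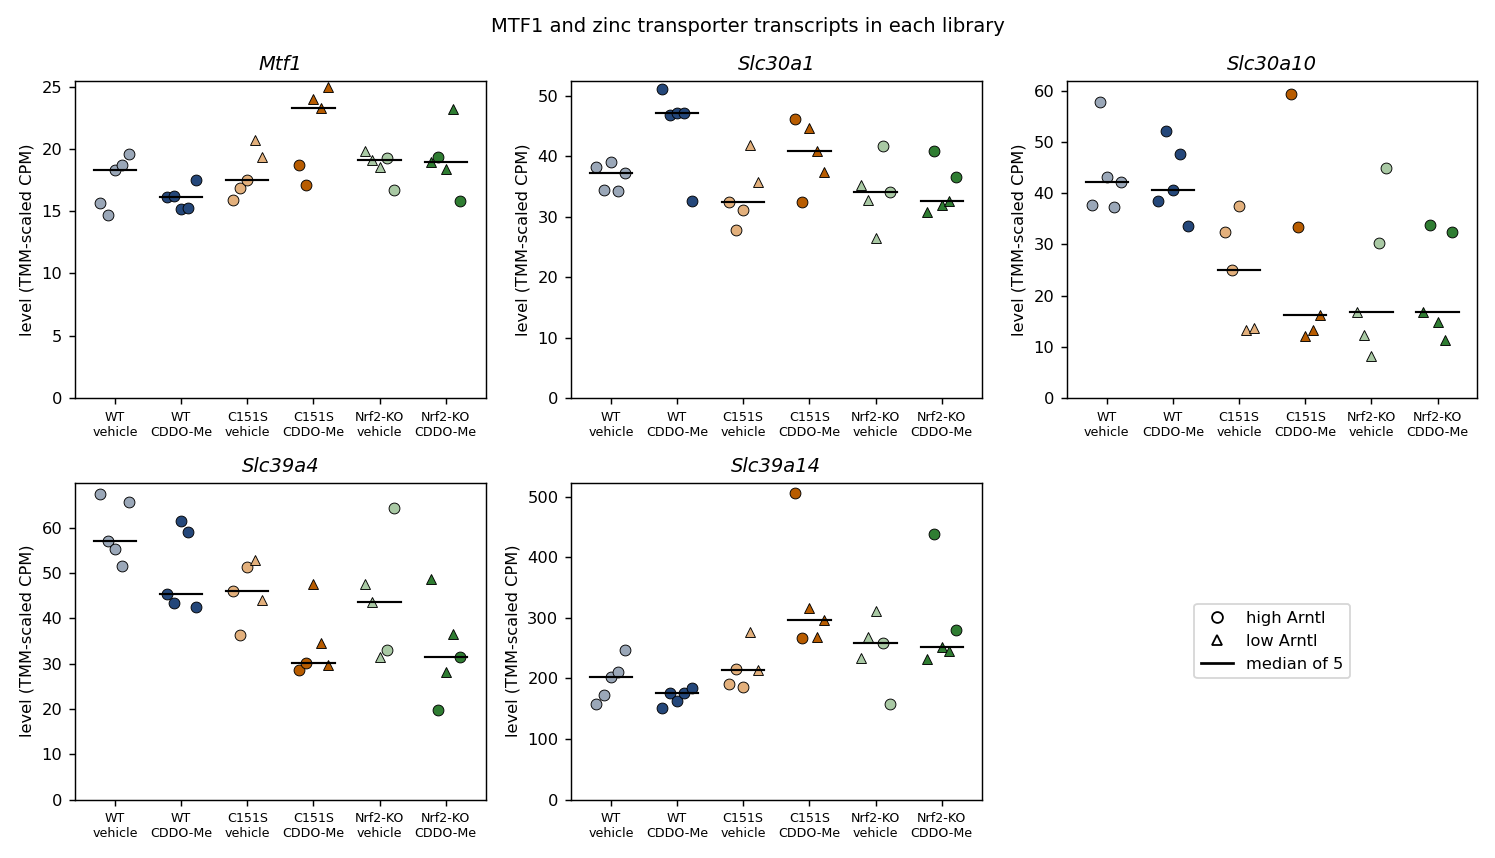
Levels of Mtf1, Slc30a1, Slc30a10, Slc39a4, and Slc39a14 in each of the 30 livers (TMM-scaled CPM, linear axes from 0), by genotype and treatment; circles are libraries with high Arntl, triangles those with low Arntl, and black lines the median of 5. Slc30a10 splits the mutant groups by Arntl, and after CDDO-Me Slc39a14 is higher in every mutant liver than in any wild-type liver given CDDO-Me.

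Levels were set beside each other only after division by transcript length, as CPM per kilobase of the principal transcript. In wild-type vehicle livers the order of the medians was Mt1 (81.3), Slc39a14 (41.0), Mt2 (40.8), Slc39a4 (20.7), Slc30a10 (7.21), Slc30a1 (7.12), and Mtf1 (2.40). Mt1, between 28.0 and 92.9, overlapped Slc39a14, between 31.96 and 50.1, which overlapped Mt2, between 12.2 and 47.9. Slc39a4, between 18.7 and 24.6, lay within the range of Mt2, and the exporters overlapped each other. After CDDO-Me in wild-type mice Mt1 (378) and Mt2 (334) were above Slc39a14 (35.8) in every liver, with the lowest Mt2 at 183 and the highest Slc39a14 at 37.5.

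Genes of the same pathways were counted on lists fixed with earlier results of these data known. In wild-type mice after CDDO-Me, 0 of 7 tested SLC30 exporters were called (median log2 fold change 0.06) and 1 of 13 SLC39 importers (median -0.04). Over all genes tested the share called was 2.75% and the median -0.01, so counts of 0 or 1 on short lists are near that share. The importer called was Slc39a5, which rose by 1.10 ± 0.20 on the log2 scale (adjusted p = 0.0079, edgeR), from 0.389 to 0.686 CPM with vehicle to 0.992 to 1.25 CPM, a low level. Of 6 other MTF1-responsive genes 1 was called, Gclc (1.37 ± 0.17, adjusted p = 5.9e-04, edgeR), the catalytic subunit for glutathione synthesis and also an NRF2 target. Of 10 copper-handling genes 0 were called, with a median of 0.08. The NRF2 targets were called higher in 7 of 9 tested in wild-type mice, in 0 of 9 in C151S mice, and in 0 of 9 in Nrf2-knockout mice. No gene of the exporter, importer, MTF1-responsive, and copper lists was called for CDDO-Me in C151S or Nrf2-knockout mice. Of all genes tested only 0.0920% and 0% were called there, so the absence of calls says little about these lists.

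Zinc transporters outside the 7 were also called in the comparisons of mutant with wild-type mice. Between 4.84% and 10.4% of all genes tested were called in these comparisons, so single calls on short lists say little about zinc transporters as a set. Slc39a7, an importer of the endoplasmic reticulum and Golgi, was lower in C151S mice with vehicle (log2 fold change -0.74, adjusted p = 0.0175, edgeR), and Slc39a10 was lower in Nrf2-knockout mice with vehicle (-0.87, adjusted p = 0.0072, edgeR). The level of Slc39a10 was low there, at 1.62 to 2.71 CPM against 3.60 to 4.73 CPM in wild-type mice. Slc30a3, the exporter known for loading synaptic vesicles, was higher in Nrf2-knockout mice with vehicle (1.65, adjusted p = 0.0328, edgeR). It was also higher after CDDO-Me in C151S (1.95, adjusted p = 0.0312, edgeR) and Nrf2-knockout mice (2.09, adjusted p = 0.0085, edgeR), against the shared wild-type livers. Csrp1, on the MTF1-responsive list, was called higher in Nrf2-knockout mice under both treatments (0.93 and 0.87, adjusted p = 0.0026 and 8.3e-04, edgeR) and in C151S mice after CDDO-Me (0.57, adjusted p = 0.0110, edgeR).

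In wild-type mice after CDDO-Me, 6 of 16 genes on the interleukin-6 and acute phase list were called higher (median log2 fold change 0.90), against 2.75% of all genes called in either direction. The 3 with the lowest p were Lbp, which binds lipopolysaccharide (0.60, adjusted p = 3.8e-04, edgeR), Itih4 (0.98, adjusted p = 0.0145, edgeR), and the hemoglobin-binding Hp (1.15, adjusted p = 0.0195, edgeR). The list's summed level was 22510 to 31600 CPM with vehicle and 29990 to 67510 CPM after CDDO-Me in wild-type mice. In the mutants 0 of 16 were called, with medians of 1.37 in C151S and 0.65 in Nrf2-knockout mice, and the highest sums after CDDO-Me were 174000 and 100800 CPM. Lcn2, which encodes the siderophore-binding protein lipocalin 2, was at 2589 CPM in C151S CDDO-Me replicate 1 and at 2012 CPM in Nrf2KO CDDO-Me replicate 2, the same 2 livers that led in Mt1, Mt2, and Slc39a14, against group medians of 35.9 and 36.4 CPM. The part of an acute phase response in the metallothionein levels was not tested. The glucocorticoid-responsive list had 1 of 10 genes called in wild-type mice after CDDO-Me, Fkbp5, the glucocorticoid receptor co-chaperone (0.97, adjusted p = 0.0207, edgeR), with a list median of -0.27. In the comparison in which Slc39a14 was higher in C151S than in wild-type mice after CDDO-Me, 5 of the 10 were called higher, led by Zbtb16 (2.23, adjusted p = 0.0059, edgeR), Tsc22d3 (0.78, adjusted p = 0.0208, edgeR), and Tat (1.06, adjusted p = 0.0310, edgeR), and the interleukin-6 receptor gene Il6ra was higher there by 1.501 (adjusted p = 0.0010, edgeR). In the comparison of Nrf2-knockout with wild-type mice after CDDO-Me, 0 of the 10 were called, and Il6ra was higher by 1.15 (adjusted p = 0.0042, edgeR). Il6ra is only 1 of the 16 genes on the interleukin-6 and acute phase list. Levels of Stat3, Saa1, and Hp after CDDO-Me are given here as a description only. The Stat3 median was 158 CPM for C151S, 141 CPM for Nrf2-knockout, and 138 CPM for wild-type mice, with ranges that overlapped. Medians of Saa1 (445 and 248 against 1983 CPM) and Hp (4088 and 3385 against 5116 CPM) were lower in the mutants. By group means C151S mice were instead above wild-type mice for Saa1 (4369 against 3703 CPM) and Hp (8353 against 6540 CPM). The Nrf2-knockout means were lower for both genes (1594 and 5754 CPM). The part of these genes in the Slc39a14 difference was not tested.

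**Figure D4:**
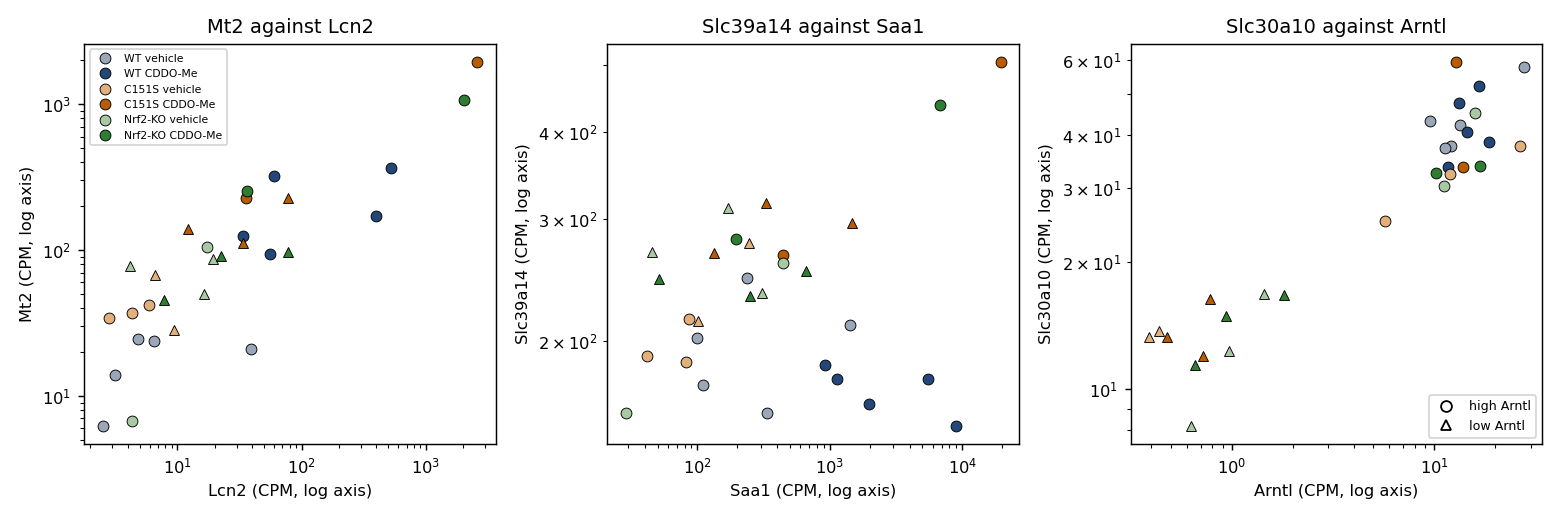
Each of the 30 livers plotted by the level of Mt2 against Lcn2, of Slc39a14 against Saa1, and of Slc30a10 against Arntl (TMM-scaled CPM, log axes), colored by group, with triangles for low-Arntl livers. The C151S and the Nrf2-knockout liver with Lcn2 above 2000 CPM are the highest for Mt2 and Slc39a14, and Slc30a10 separates with Arntl, at most 16.8 CPM in the 11 low-Arntl livers. The correlation of log2 CPM was 0.247 for Slc39a14 and Saa1, and -0.204 without the 2 livers with Lcn2 above 2000 CPM. For Mt2 and Lcn2 it was 0.850, and 0.754 without them.

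Genes most like each of the 7 were named by the highest correlation of log2 CPM over the 30 libraries among 15010 genes, which is a description over libraries that share their groups. Mt1 was most like Mt2 (r = 0.989), followed by Kng2 (0.870), the heme-binding Hpx (0.836), complement C3 (0.833), and Tm6sf2 (0.820). Mt2 was most like Mt1, then Lcn2 (0.850), C3 (0.849), Kng2 (0.841), and Itih3 (0.836). After group means were removed Mt1 and Mt2 remained each other's nearest gene (0.983), but no other gene was shared between the 2 measures for either. Slc39a14 was most like Il1r1, the interleukin-1 receptor (0.903), then Cdip1 and Sema6b. Its r with Saa1 was 0.247, and -0.204 without the 2 outlying livers, and with Lcn2 0.418 and -0.059. Slc30a10 was most like Arntl (0.944, and 0.955 without the 2 outlying livers), then Clpx and Tars. Slc39a4 was most like the male-biased steroid gene Hsd3b5 (0.885), then Cyp4a12a and C1ra. Mtf1 was most like Slc35a4 (0.857), Rabl6, and Usp36, and Slc30a1 was most like Twf1 (0.818), Cxcl12, and Chmp1b. Among the 7, Slc39a4 ran opposite to Mt1 (r = -0.726, and -0.618 without the 2 outlying livers) and to Slc39a14 (-0.732, and -0.630).

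Markers of other liver cells were read beside these results, in bulk tissue where fewer cells of a type and less RNA per cell cannot be told apart. In wild-type mice after CDDO-Me, 1 of 9 hepatocyte markers was called higher and 0 of 8 Kupffer cell, 0 of 7 endothelial, 0 of 7 stellate cell, 0 of 5 cholangiocyte, and 0 of 5 lymphocyte markers were called. The neutrophil marker S100a8 was called higher (log2 fold change 1.69, adjusted p = 0.0235, edgeR), 1 of 2 tested from a list of 7, with a summed list level of 0.880 to 1.58 CPM with vehicle and 1.11 to 3.14 CPM after CDDO-Me, and Camp, Ly6g, and Mpo at 3 counts or fewer in all 10 of these libraries. Of the erythroid markers 1 of 5 was called lower, and the 1 pancreatic acinar marker tested, of 6, was called lower, with sums of 12.9 to 22.2 and 8.64 to 13.8 CPM. In Nrf2-knockout against wild-type mice with vehicle, 4 of 7 stellate cell markers (sums 192 to 512 against 174 to 262 CPM), 3 of 7 endothelial markers (250.1 to 411 against 205 to 257 CPM), and 2 of 2 neutrophil markers (1.18 to 10.6 against 0.880 to 1.58 CPM) were called higher, and 3 of 5 erythroid markers lower (137 to 217 against 222 to 324 CPM). In C151S against wild-type mice with vehicle, 1 of 7 endothelial markers was called higher and 1 of 5 cholangiocyte markers lower. Over all genes tested, the share called in either direction was 2.75% for CDDO-Me in wild-type mice. Against wild-type mice with vehicle it was 10.4% for Nrf2-knockout and 4.84% for C151S mice. The part of cell composition in the metallothionein differences was not tested.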

How the data were processed

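Livers of 30 mice were profiled by stranded poly(A) RNA-seq, and the deposited values are whole-number counts for each gene, which the authors made from reads assessed with fastp, without trimming, aligned to mm10 with STAR 2.7.7, and counted per GENCODE gene on the second strand. Their own test used edgeR 3.36.0 with the RNA isolation date as a covariate; those dates are not in the labels and were not used here. The 4 summary lines of the counting step were left out, and 65.9 to 80.6% of all deposited counts were on genes.

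Each comparison was fitted on its 10 libraries with edgeR 4.0.16 in R 4.3.3 (filterByExpr, TMM, quasi-likelihood F-test, Benjamini-Hochberg over all genes tested), and differences between responses on all 30 libraries. Genes were called at an adjusted p under 0.05 and, for pairs of groups, a log2 fold change of 0.5 or more in either direction. SE was taken as the size of the log2 fold change over the root of F. Lengths are those of APPRIS principal transcripts in GENCODE M21 (GRCm38), while the counts used M23. No identical libraries were found. Libraries were set apart by the widest gap in Arntl.

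The 7 genes and the lists were chosen with earlier results of these data known. Named genes were the 7, at most 3 called genes per list and comparison by lowest p, the 5 genes most like Mt1 and Mt2 and 3 for the others, and Arntl, Nfe2l2, Keap1, and Nqo1 as checks; Alb, Saa1, and Lcn2 in single livers were added after their values were seen. Of the 7 genes, 5 had a RefSeq promoter window. Alternatives were DESeq2 1.42.0, no filter, RLE scaling, a replicate block, 1 fit of 30 libraries, Arntl as a covariate, no threshold on fold, and each library left out. Fits on high- or low-Arntl livers alone, without the 2 outlying livers, and with Arntl in the differences between wild-type and mutant responses were added after seeing the data. The scripts were tested on simulated data.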

Additional observations from a re-analysis of the deposited data

Results flagged for a closer look

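In 7 of the 42 sets of 5 livers (7 genes in 6 groups), 1 liver was separated from the other 4 by more than Dixon's critical share of the range on the log2 scale, where chance gives about 1 in 20. C151S CDDO-Me replicate 1 was the highest of its group for Mt1 (2184 CPM, others 221 to 374), Mt2 (1940 CPM, others 113 to 227), and Slc39a14 (505 CPM, others 266 to 316). Nrf2KO Vehicle replicate 5 was the lowest of its group for Mt1 (18.2 CPM, others 105 to 173) and Mt2 (6.67 CPM, others 50.3 to 105). WT Vehicle replicate 3 was the lowest for Mt1 (15.4 CPM, others 38.4 to 51.0). WT CDDO-Me replicate 5 was the lowest for Slc30a1 (32.6 CPM, others 46.9 to 51.2). The sets are not independent, since Mt1 and Mt2 share their livers.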

How the results depend on the processing

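The calls of Mt1 and Mt2 for CDDO-Me in wild-type mice and of Slc39a14 in both mutants after CDDO-Me held under all alternatives run. With vehicle, the 2 genes called in C151S mice became 1 with the replicate block and 0 in 1 fit of 30 libraries, and DESeq2 called Slc30a10 besides the 2. The 2 in Nrf2-knockout mice became 0 with the replicate block, in 1 fit of 30 libraries, and among high-Arntl livers. After CDDO-Me, the 1 gene called in C151S against wild-type mice became 2 with DESeq2, with the replicate block, and with no threshold on fold. With 1 library left out, the numbers called ranged from 0 to 2 for CDDO-Me in C151S mice, from 1 to 2 for C151S and from 0 to 4 for Nrf2-knockout mice against wild-type mice with vehicle, and from 1 to 2 for each mutant against wild-type mice after CDDO-Me; the 4 came without Nrf2KO Vehicle replicate 5. In no comparison were all 5 same-numbered pairs correlated above 0.1, the rule set for pairing, but that rule cannot exclude partial pairing. Same-numbered pairs had a mean correlation of 0.177 for CDDO-Me in Nrf2-knockout mice, where other pairs had -0.044. For C151S against wild-type mice after CDDO-Me the means were 0.146 and -0.039. In the remaining comparisons same-numbered pairs had means between -0.189 and 0.051. Where none of the 7 genes was called without the block, none was called with it. For Nrf2-knockout against wild-type mice after CDDO-Me the replicate block turned Mt1 to -0.057 and Mt2 to -0.30. The Mt2 response of wild-type minus C151S mice turned to 0.92 with the replicate block, 0.35 with Arntl as a covariate, and 1.52 without the 2 outlying livers. Mt1 in C151S against Nrf2-knockout mice with vehicle turned to 0.36 among high-Arntl livers. With 1 library left out, log2 fold changes that changed sign ranged from -0.10 to 1.33 (Mt1) and -0.27 to 1.58 (Mt2) for C151S and from -0.60 to 0.93 and -0.79 to 0.81 for Nrf2-knockout against wild-type mice after CDDO-Me, from -0.75 to 1.72 and -0.80 to 2.12 for C151S against Nrf2-knockout mice after CDDO-Me, from -0.35 to 1.52 for the Mt2 response of wild-type minus C151S mice, and from -0.56 to 1.92 and -0.17 to 2.76 for that of C151S minus Nrf2-knockout mice. Of 84 fold changes, 31 changed sign under some alternative, none of them called. The causes were not tested. Levels moved by less than 1 SD under RLE scaling. Leaving out 1 library of 5 cannot move a group mean by 1 SD, so that check on levels could not have come out otherwise. When group means were removed, each list of most-like genes changed, with 1 gene kept for 6 of the 7 genes and 2 of 3 for Slc30a10. Fits within an Arntl set hold 2 to 5 livers a group, so a lost call there also reflects fewer samples. Isolation dates were not used here.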
